A study of Homo sapiens with 4 samples.

Results

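The transcripts of 10 genes for AP-1 and early growth response factors were followed in SK-MEL-28 and A375 cells, both established from human melanomas. The cells had received siLINC01291, an siRNA named for the long non-coding RNA it targets, or siNC, by its name a negative control siRNA. The genes are JUN, JUNB and JUND, FOS, FOSB, FOSL1 and FOSL2, ATF3, MAFF and EGR1. They were picked by gene name, and all 10 were among the 18175 genes and loci of the expression table. The 4 groups were SK-MEL-28 with siLINC01291, SK-MEL-28 with siNC, A375 with siLINC01291 and A375 with siNC, each a single RNA sequencing library of poly(A)-enriched RNA from cells grown in medium with fetal bovine serum. The treatment label also lists EL, which it does not explain, and no label gives the time between siRNA treatment and harvest. With 1 library a group, values within a line have no replicate check and carry no p-value. The siRNA was replicated only across the 2 lines. P-values over both lines thus weigh the mean shift of a gene against a spread. That spread comes from how unequally the lines respond and is estimated partly from the other tested genes.

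AP-1 is a pair of proteins with basic leucine zippers that binds DNA as a dimer. JUN proteins can pair with each other or with a FOS protein, whereas FOS proteins do not pair with each other and mostly bind DNA with a JUN partner. Many of the genes are immediate early genes: growth factors and stress act through MAP kinases on factors already present, and the transcripts appear and decay quickly. In melanoma, FOSL1 and JUN are known for their link to the dedifferentiated, invasive cell state, and both lines are known to carry an activating BRAF mutation upstream of ERK.

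The libraries held between 29351240 and 31815336 counts. Counts of LINC01291 itself were 454 with siLINC01291 and 998 with siNC in SK-MEL-28, and 304 with siLINC01291 and 827 with siNC in A375. It fell by 1.34 on the log2 scale over both lines (SE 0.13, adjusted p = 0.0171, quasi-likelihood test of edgeR blocked on cell line, Benjamini-Hochberg adjustment). All 9 melanocyte lineage markers reached an FPKM of 1 (fragments per kilobase of transcript, scaled to library size) in both SK-MEL-28 libraries, but 4 of 9 did so in the A375 libraries, where SOX10 stood at 118 and 80.1 FPKM (siLINC01291, siNC) and TYR, DCT, MLANA, TYRP1 and S100A1 were under 1. Of 14 markers of keratinocytes, fibroblasts, endothelium and leukocytes, 2 were in the table, KRT14 and LUM, both at no more than 8.07 FPKM.

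FOSL1 was by far the most abundant of the 10 transcripts. JUN and FOSL1 were lower with siLINC01291 in both lines, and of the 10 only JUN passed the test over both lines. FOS, FOSB and MAFF stood higher with siLINC01291 in SK-MEL-28 but not in A375. Over both lines, 1 of the 10 factors passed the test of siLINC01291 against siNC (0 higher, 1 lower), where 0.896% of the 13501 tested genes passed in either direction and 0.674% were lower. The median log2 change of the 10 was 0.04, against 0.01 for all tested genes. At an unadjusted p under 0.05, 0 were higher and 2 were lower, JUN and FOSL1, where 16.9% of all tested genes were under that p (8.53% higher, 8.37% lower), so 2 of 10 is near the background. DESeq2 called JUN as well, and limma on log2(FPKM + 1) called 0. With 1 residual degree of freedom, the spread in this model comes from how unequally a gene shifts in the lines and partly from the other tested genes.

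**Figure D1:**
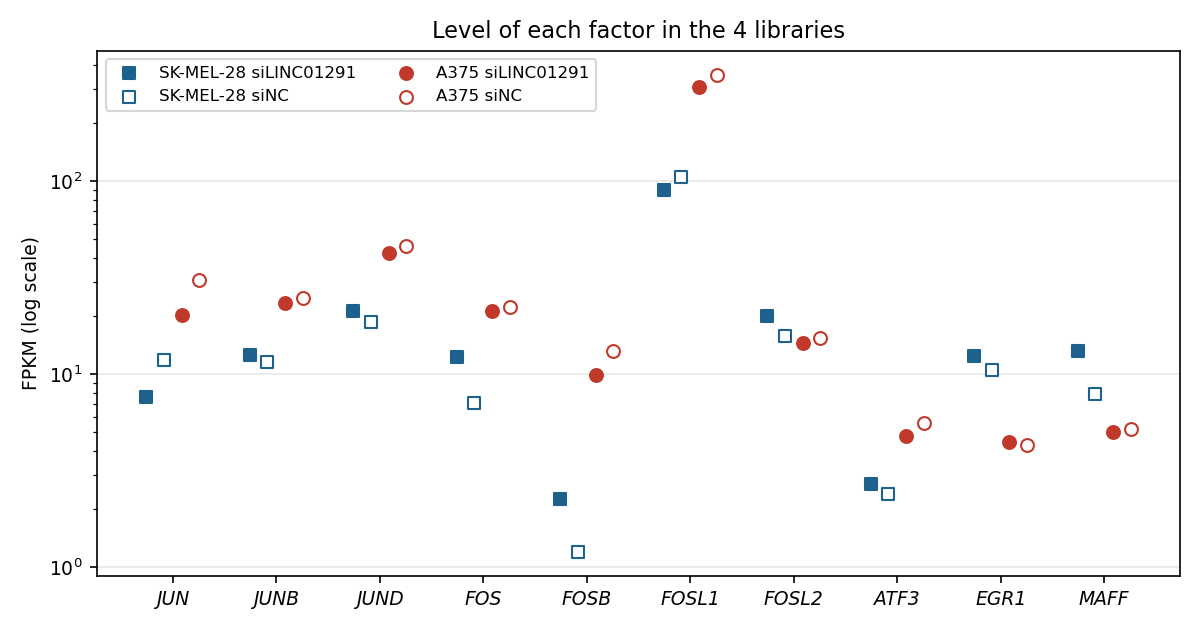
FPKM (log scale) of each of the 10 factors in the 4 libraries; squares are SK-MEL-28, circles A375, filled symbols siLINC01291 and open symbols siNC. FOSL1 stands highest in every library, between 89.5 and 356 FPKM, and FOSB spans the widest range, between 1.20 and 13.2 FPKM.

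JUN codes for the founding AP-1 subunit, a strong activator whose gene is known to be driven by its own protein. It is a gene of a single exon on the minus strand of chromosome 1, at chr1:58780788-58784327 (GENCODE 29 on GRCh38). JUN stood at 7.60 FPKM with siLINC01291 and 11.9 FPKM with siNC in SK-MEL-28. In A375 it stood at 20.3 FPKM with siLINC01291 and 30.6 FPKM with siNC. The siLINC01291 library was thus the lower one in both lines, and by nearly the same ratio. That ratio was 0.628 in SK-MEL-28 (810 against 1268 counts, 95% exact binomial interval 0.574 to 0.686, counting error only) and 0.645 in A375 (2346 against 3432 counts, interval 0.611 to 0.680). JUN fell by 0.65 on the log2 scale over both lines (SE 0.09, adjusted p = 0.0468, edgeR's quasi-likelihood test, lower in 2 of 2 lines), and 2.33% of tested genes had a lower log2 change. The call lies close to the threshold and depends on the test, the scaling and the filter on low genes. It held under 3 of 9 alternatives, with adjusted p between 0.00359 and 1.00 and a log2 change between -0.66 and -0.58; edgeR with bias-adjusted deviances gave an adjusted p of 0.0639 and the model without the cell line gave 1.00.

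The promoter of JUN is shown because JUN alone of the 10 passed the test and because its own AP-1 site lies there (RefSeq, GRCh38.p14, minus strand, chr1:58783998-58784297). The window runs from 250 bases before to 50 bases after the annotated start, and capitals mark TGACATCA, the variant AP-1 site, and a CCAAT box.
JUN: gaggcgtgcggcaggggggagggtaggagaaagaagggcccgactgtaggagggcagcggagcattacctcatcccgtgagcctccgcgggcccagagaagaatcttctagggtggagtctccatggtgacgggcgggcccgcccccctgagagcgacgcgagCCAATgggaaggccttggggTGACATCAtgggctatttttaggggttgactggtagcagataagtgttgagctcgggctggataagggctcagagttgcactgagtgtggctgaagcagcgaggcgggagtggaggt
TGACATCA lies at -67 to -60 from the RefSeq start. It was found on either strand in 1.48% of the 13460 promoters of tested genes, and among the 9 factors with a promoter in the table only JUN and ATF3 held it. FOSL1 had no entry.

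JUNB and JUND code for the other JUN proteins, which pair with FOS proteins like JUN and can restrain its activity. JUNB stood at 12.5 FPKM with siLINC01291 and 11.6 FPKM with siNC in SK-MEL-28, and at 23.4 FPKM with siLINC01291 and 24.9 FPKM with siNC in A375. JUND stood at 21.1 FPKM with siLINC01291 and 18.6 FPKM with siNC in SK-MEL-28, and at 42.2 FPKM with siLINC01291 and 46.0 FPKM with siNC in A375. Neither passed over both lines (log2 change -0.03 for JUNB and -0.01 for JUND, SE 0.11 each, edgeR adjusted p = 0.927 and 0.976), and the sign of both values depends on the scaling. JUND was the most abundant of the 3 JUN transcripts in every library. JUN made up 18.5% of the summed JUN, JUNB and JUND FPKM with siLINC01291 and 28.2% with siNC in SK-MEL-28, and 23.6% with siLINC01291 and 30.1% with siNC in A375. These shares are a description of single libraries. JUNB overlaps HOOK2 on the opposite strand, and whether counting used strand is not stated, so the reads of such pairs cannot be told apart. HOOK2 had a ratio of 1.30 in SK-MEL-28 and 0.958 in A375.

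FOSL1, which codes for FRA1, is a FOS protein without the strong activation domain of FOS and a known target of lasting ERK signalling. It stood at 89.5 FPKM with siLINC01291 and 105 FPKM with siNC in SK-MEL-28, and at 307 FPKM with siLINC01291 and 356 FPKM with siNC in A375. By FPKM it ranked 351 and 271 among all listed genes in the SK-MEL-28 libraries (siLINC01291, siNC) and 70 and 62 in those of A375. The siLINC01291 library was lower in both lines, with a ratio of 0.834 in SK-MEL-28 (interval 0.803 to 0.866) and 0.837 in A375 (interval 0.821 to 0.854). Over both lines the log2 change was -0.26 (SE 0.07), which did not pass (edgeR adjusted p = 0.171, lower in 2 of 2 lines). FOSL2, which codes for the related FRA2, stood at 19.99 FPKM with siLINC01291 and 15.7 FPKM with siNC in SK-MEL-28. In A375 FOSL2 stood at 14.5 FPKM with siLINC01291 and 15.3 FPKM with siNC, and it did not pass over both lines (log2 change 0.10, SE 0.12, edgeR adjusted p = 0.748). FOSL2 overlaps FLJ31356 on the opposite strand and AC104695.3 on its own strand. No values of these genes are given, and their part in the FOSL2 counts was not tested.

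FOS codes for the classic serum-induced AP-1 subunit. FOS stood at 12.3 FPKM with siLINC01291 and 7.04 FPKM with siNC in SK-MEL-28, and at 21.1 FPKM with siLINC01291 and 22.3 FPKM with siNC in A375. The siLINC01291 library was the higher one in SK-MEL-28 and slightly the lower one in A375. The ratio was 1.71 in SK-MEL-28 (1150 against 661 counts, interval 1.55 to 1.88) and 0.922 in A375 (2147 against 2196 counts, interval 0.868 to 0.979). FOSB, a close relative of FOS with the same induction kinetics, stood at 2.25 FPKM with siLINC01291 and 1.20 FPKM with siNC in SK-MEL-28, and at 9.93 FPKM with siLINC01291 and 13.2 FPKM with siNC in A375. Its ratio was 1.84 in SK-MEL-28 (368 against 196 counts, interval 1.55 to 2.20) and 0.732 in A375 (1761 against 2271 counts, interval 0.687 to 0.779). The intervals of the lines did not overlap for FOS or for FOSB, but they cover counting error only. Over both lines neither passed (log2 change 0.31, SE 0.20, edgeR adjusted p = 0.498 for FOS; 0.11, SE 0.28, edgeR adjusted p = 0.897 for FOSB). The gap between the 2 log2 ratios, SK-MEL-28 minus A375, was 0.89 for FOS and 1.33 for FOSB, and 2.60% and 0.783% of the 10988 genes expressed in both lines had a larger gap in either direction. With 1 library a group that gap could not be tested. FOSB overlaps ERCC1 on the opposite strand, whose own ratios were 0.956 in SK-MEL-28 and 1.03 in A375.

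MAFF codes for a small MAF protein, which has a leucine zipper but no activation domain and pairs with NRF factors or FOS. MAFF stood at 13.2 FPKM with siLINC01291 and 7.85 FPKM with siNC in SK-MEL-28, and at 4.97 FPKM with siLINC01291 and 5.17 FPKM with siNC in A375. The ratio was 1.65 in SK-MEL-28 (2180 against 1298 counts, interval 1.54 to 1.77), where the siLINC01291 library was clearly higher, and 0.936 in A375 (891 against 898 counts, interval 0.852 to 1.03), where the interval held 1. MAFF did not pass over both lines (log2 change 0.33, SE 0.19, edgeR adjusted p = 0.447). PLA2G6, on the opposite strand of MAFF and overlapping it, had a ratio of 1.49 in SK-MEL-28 (interval 1.32 to 1.69) and 1.08 in A375 (interval 0.892 to 1.30); its part in the MAFF counts was not tested. ATF3, a stress-induced factor that can repress or activate with JUN partners, stood at 2.69 FPKM with siLINC01291 and 2.38 FPKM with siNC in SK-MEL-28, and at 4.76 FPKM with siLINC01291 and 5.56 FPKM with siNC in A375. ATF3 did not pass either (log2 change -0.07, SE 0.15, edgeR adjusted p = 0.849).

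EGR1 is a zinc finger factor outside the AP-1 family that ERK induces through serum response factor together with FOS. EGR1 stood at 12.4 FPKM with siLINC01291 and 10.4 FPKM with siNC in SK-MEL-28, and at 4.42 FPKM with siLINC01291 and 4.28 FPKM with siNC in A375. Its ratio was 1.16 in SK-MEL-28 (interval 1.06 to 1.26) and 1.00 in A375 (interval 0.876 to 1.15), and it did not pass over both lines (log2 change 0.12, SE 0.11, edgeR adjusted p = 0.671). In SK-MEL-28 its interval lay below those of FOS, FOSB and MAFF.

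Within SK-MEL-28, 3 of the 10 factors, FOS, FOSB and MAFF, were at least 1.5-fold higher with siLINC01291 (background 6.45% of 12336 expressed genes), and 1, JUN, was at least 1.5-fold lower (background 4.99%). Within A375, 0 were at least 1.5-fold higher (background 4.06% of 13244 expressed genes) and 1, again JUN, was at least 1.5-fold lower (background 3.86%). Of the 10, 8 had a log2 ratio above 0 in SK-MEL-28 and 1 did so in A375. JUND, FOS, FOSB and FOSL2, 4 of the 10, lay on opposite sides in the lines with both counting intervals excluding a ratio of 1, as did 7.03% of the 10988 genes expressed in both lines. The median log2 ratio of the 10 was 0.18 in SK-MEL-28 and -0.15 in A375, against 0.01 and 0.00 for the expressed genes of each line.

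**Figure D2:**
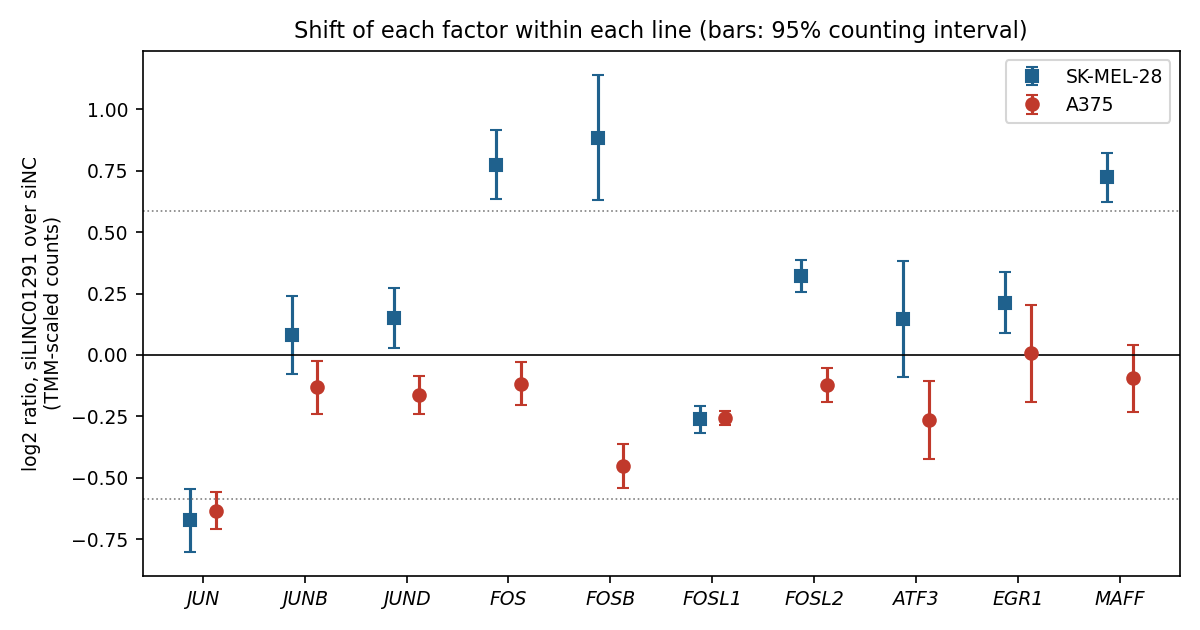
Log2 ratio of TMM-scaled counts, siLINC01291 over siNC, for each factor in SK-MEL-28 (squares) and A375 (circles), with 95% exact binomial intervals that cover counting error only; dotted lines mark 1.5-fold. JUN lies below the lower line in both cell lines, while FOS, FOSB and MAFF lie above the upper line in SK-MEL-28 and below 0 in A375.

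In SK-MEL-28, FOS, FOSB and MAFF had the highest ratios of siLINC01291 over siNC among the factors. EGR1, known to be induced by the same pathway, had a ratio of 1.16. The promoters of FOS, FOSB, MAFF and EGR1 are shown for that reason. They come from RefSeq on the plus strand of GRCh38.p14, at chr14:75278578-75278877 (FOS), chr19:45467746-45468045 (FOSB), chr22:38201744-38202043 (MAFF, the first of 2 starts) and chr5:138465229-138465528 (EGR1). Capitals mark TATAAA in FOS and FOSB, the cAMP response element TGACGTCA and a CCAAT box in MAFF, and the CArG boxes bound by serum response factor in EGR1.
FOS: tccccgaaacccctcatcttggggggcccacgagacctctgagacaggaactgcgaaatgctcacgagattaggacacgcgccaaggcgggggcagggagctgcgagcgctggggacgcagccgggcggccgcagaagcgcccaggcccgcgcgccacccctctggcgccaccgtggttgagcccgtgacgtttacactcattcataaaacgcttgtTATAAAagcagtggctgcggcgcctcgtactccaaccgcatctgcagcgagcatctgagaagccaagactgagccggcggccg
FOSB: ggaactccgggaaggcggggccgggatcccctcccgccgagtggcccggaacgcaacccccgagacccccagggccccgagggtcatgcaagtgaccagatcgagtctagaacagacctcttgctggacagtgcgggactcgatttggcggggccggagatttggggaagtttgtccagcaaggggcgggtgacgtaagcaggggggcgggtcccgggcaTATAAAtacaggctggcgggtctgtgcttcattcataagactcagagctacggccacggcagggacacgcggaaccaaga
MAFF: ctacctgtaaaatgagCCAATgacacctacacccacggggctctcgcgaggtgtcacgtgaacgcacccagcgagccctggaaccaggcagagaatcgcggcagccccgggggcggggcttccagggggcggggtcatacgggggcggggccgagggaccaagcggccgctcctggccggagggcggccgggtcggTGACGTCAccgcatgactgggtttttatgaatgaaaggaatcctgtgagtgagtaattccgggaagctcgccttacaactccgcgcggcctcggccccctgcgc
EGR1: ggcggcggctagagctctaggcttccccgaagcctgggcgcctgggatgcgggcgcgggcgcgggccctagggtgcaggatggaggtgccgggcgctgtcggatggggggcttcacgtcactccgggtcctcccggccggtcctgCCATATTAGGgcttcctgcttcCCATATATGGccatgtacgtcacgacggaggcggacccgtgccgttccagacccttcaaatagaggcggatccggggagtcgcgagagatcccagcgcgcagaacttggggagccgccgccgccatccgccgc
Searched on both strands, TATAAA was in the promoters of 4 of the 9 factors (ATF3, FOS, FOSB and JUNB) and in 6.00% of the promoters of tested genes. A factor was counted if any of its promoters held the motif (11 promoters for the 9 factors), whereas the shares are per promoter. TATAAA lay at -33 to -28 in FOS, -30 to -25 in FOSB and -31 to -26 in JUNB. In ATF3 it lay at -230 to -225 from the second start only. The CArG box was in EGR1 only, at -105 to -96 and -83 to -74, and in 1.10% of the promoters of tested genes. TGACGTCA was in JUND and MAFF (2.90% of promoters), and the consensus AP-1 site TGANTCA was in FOSL2 (5.19%). Of the 9 motifs searched, only the GC box GGGCGG was in all of FOS, FOSB and MAFF, and it was also in 4 other factors and in 66.7% of the promoters of tested genes. Sites beyond these windows were not searched.

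AU-rich words, elements known to speed the decay of FOS mRNA, were counted in the 3' UTRs of the factors. ATTTA occurred in the 3' UTR of all 10 factors and of 72.0% of 10537 tested genes (GENCODE 29, 1 principal transcript a gene). FOS held 5 copies in 806 bases, and 10.6% of genes with a 3' UTR of like length held as many. EGR1 held 1, FOSB 3 and FOSL2 9, against medians of 2, 4 and 10 at like length, and JUND and FOSL1 held 1 each, which is the median. JUN and ATF3 held 3 each against a median of 2, JUNB held 2 against 1, and MAFF held 4 against 3. The longer word TTATTTATT occurred in FOS, FOSL2 and MAFF and in 8.92% of genes. Of genes with a 3' UTR of like length, 5.36% (for FOS) and 20.4% (for FOSL2) held it. MAFF held it 2 times, which 1.52% of genes of like length matched. The sites are shown as examples of the longer word, which is in capitals.
FOS: tttttaatTTATTTATTaagatggat
MAFF, first site: cccactgtTTATTTATTgcacggatc
MAFF, second site: cctagaatTTATTTATTtcctgactt
FOSL2: ttattttaTTATTTATTttaaatgtt
FOSB and JUN did not hold TTATTTATT. The words CTATGAA and TCTATGA had been singled out by an earlier search of these log2 ratios against 3' UTR sequence. Of the 10 factors, FOSL2 alone held either word, against 14.3% of tested genes and 34.4% of genes with a 3' UTR of like length, and its log2 change over both lines was 0.10.
FOSL2, CTATGAA site: gtcatcccaCTATGAAtctggcatct
JUN and FOSL1, the factors that were lower in both lines, held neither word. Of genes with a 3' UTR of like length, 12.1% (for JUN) and 5.71% (for FOSL1) held either word, so absence was the common case.

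SK-MEL-28 was then set against A375 over both siRNAs. All 10 factors differed between the lines, 3 higher and 7 lower in SK-MEL-28 (quasi-likelihood test of edgeR blocked on siRNA), where 72.4% of tested genes passed, 36.1% higher and 36.3% lower. The count is thus read against a background in which most genes differ. Each line was replicated only across the 2 siRNAs, so these p-values rest on libraries with unlike treatment and not on repeats of a line. The median log2 difference was -0.92 for the 10 factors and -0.02 for all tested genes. FOSB showed the largest difference of the 10 (log2 difference -2.60, SE 0.29, edgeR adjusted p = 0.000294). It was 3.90-fold lower in SK-MEL-28 than in A375 in the siLINC01291 libraries and 9.78-fold lower in the siNC libraries. FOSL1 was lower by a like ratio under both siRNAs (log2 difference -1.60, SE 0.08, edgeR adjusted p = 6.56e-06, 3.04-fold and 3.03-fold with siLINC01291 and siNC). JUN (-1.23), FOS (-1.05), JUND (-0.99), ATF3 (-0.86) and JUNB (-0.84) were also lower, with edgeR adjusted p between 4.98e-05 and 0.00360. FOS was 1.53-fold lower with siLINC01291 and 2.82-fold lower with siNC. The other 4 were between 1.56-fold and 2.36-fold lower with siLINC01291 and between 1.92-fold and 2.30-fold lower with siNC.

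EGR1 was the factor most raised in SK-MEL-28 over A375 (log2 difference 1.55, SE 0.12, edgeR adjusted p = 4.69e-05), 3.14-fold with siLINC01291 and 2.72-fold with siNC. MAFF was higher by 1.17 on the log2 scale (SE 0.19, edgeR adjusted p = 0.00164), 2.99-fold with siLINC01291 and 1.70-fold with siNC. FOSL2 was higher by 0.41 (SE 0.12, edgeR adjusted p = 0.0215), 1.55-fold with siLINC01291 and 1.14-fold with siNC, a call that did not hold with library totals alone or in limma (adjusted p between 0.110 and 0.138), where the median of all genes shifted by up to -0.17. Genetic background, lineage state and any other difference between 2 lines of 1 library per siRNA cannot be told apart here.

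The lines also differed in how the pool of JUN and FOS transcripts was made up. FOSL1 gave 54.2% of the summed FPKM of the 3 JUN and 4 FOS genes with siLINC01291 and 61.4% with siNC in SK-MEL-28, against 70.0% in both A375 libraries. FOSL2 gave 12.1% with siLINC01291 and 9.17% with siNC in SK-MEL-28, and 3.31% with siLINC01291 and 3.02% with siNC in A375. FOS gave 7.43% with siLINC01291 and 4.11% with siNC in SK-MEL-28, and 4.82% with siLINC01291 and 4.38% with siNC in A375. The summed FOS over summed JUN FPKM hardly differed between the siRNAs, at 3.01 with siLINC01291 and 3.07 with siNC in SK-MEL-28, and at 4.10 with siLINC01291 and 4.01 with siNC in A375. Transcript shares say nothing of the amounts of protein.

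**Figure D3:**
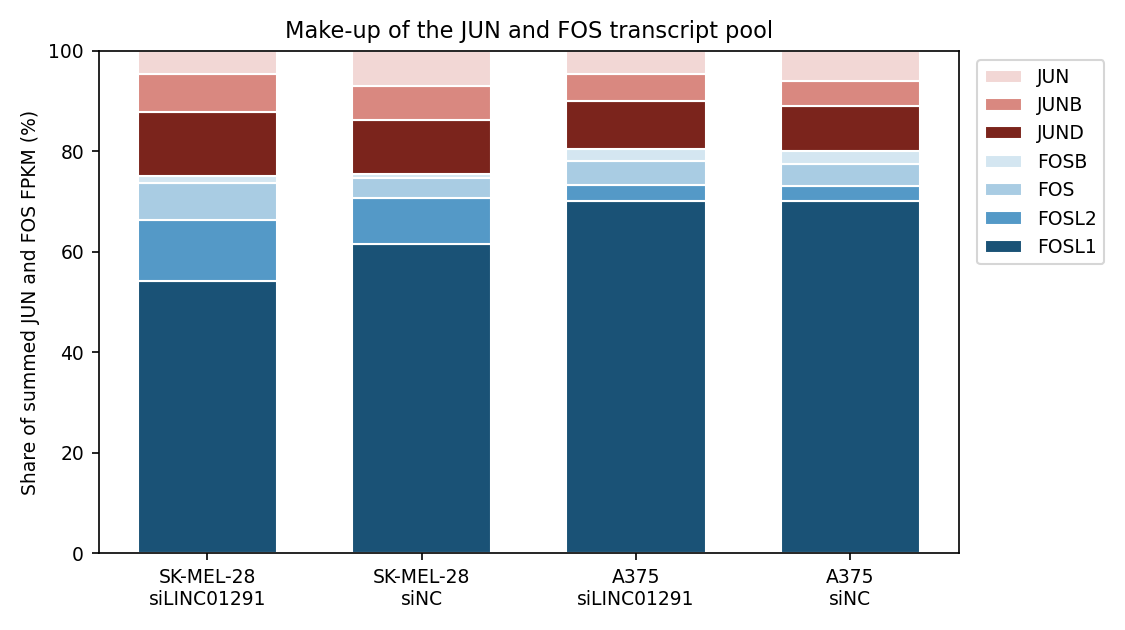
Share of each JUN and FOS gene in the summed FPKM of the 7 genes, in percent, for the 4 libraries. FOSL1 fills 54.2% and 61.4% of the SK-MEL-28 bars (siLINC01291, siNC) and 70.0% of each A375 bar.

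Genes around the factors were read from lists of 112 genes, chosen with earlier results of these data known, of which 100 were tested. Over both lines 1 of them, CXCL8, passed (0 higher, 1 lower), against the background of 0.896%. The counts at an unadjusted p under 0.05 given for each list stand against the 16.9% of all tested genes. Among 15 other basic leucine zipper factors, 0 passed in edgeR (1 higher and 2 lower at an unadjusted p under 0.05, 0 in DESeq2 and in limma), and the largest log2 changes were those of NFE2L1 (0.40), CREB1 (-0.34) and MAF (0.34). Among 4 EGR relatives and NAB corepressors, 0 passed in edgeR (1 higher and 1 lower at an unadjusted p under 0.05, 0 in DESeq2 and in limma). EGR3 came nearest, at 2.85 FPKM with siLINC01291 and 1.66 FPKM with siNC in SK-MEL-28 and at 2.56 FPKM with siLINC01291 and 1.38 FPKM with siNC in A375 (log2 change 0.80, SE 0.13, edgeR adjusted p = 0.0643). WT1 had a log2 change of -0.40, but in SK-MEL-28 it was at only 0.389 FPKM with siLINC01291 and 0.480 FPKM with siNC. NAB2, a corepressor of EGR1, had a log2 change of 0.19.

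Upstream, serum response factor and its 5 listed cofactors gave 0 calls in edgeR (1 higher and 1 lower at an unadjusted p under 0.05, 0 in limma), while DESeq2 called ELK3 lower. ELK3, a ternary complex factor that can repress FOS, had a log2 change of -0.72 (SE 0.15, edgeR adjusted p = 0.0940), against 0.40 for ELK4 and 0.18 for MRTFB. Of 17 MAP kinase genes 0 passed in edgeR (0 higher and 3 lower at an unadjusted p under 0.05, 0 in DESeq2 and in limma), and MAP3K1 (-0.58), MAP2K1 (-0.41), which codes for the ERK kinase MEK1, and MAP2K5 (0.27) had the largest log2 changes. Of 9 genes for the turnover of JUN and FOS proteins 0 passed in edgeR (1 higher and 0 lower at an unadjusted p under 0.05, 0 in DESeq2 and in limma), with GSK3B at 0.22, the JUN ubiquitin ligase subunit FBXW7 at 0.18 and CSNK2A1 at -0.10.

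Among 26 other immediate early genes 0 passed in edgeR (6 higher and 3 lower at an unadjusted p under 0.05, where 8.53% of all tested genes were higher and 8.37% lower, and 0 in limma), and DESeq2 called 1 higher and 2 lower. The largest log2 changes were those of the orphan nuclear receptor genes NR4A2 (0.69), NR4A3 (0.69) and NR4A1 (0.62, SE 0.11, edgeR adjusted p = 0.0687). NR4A1 stood at 12.8 FPKM with siLINC01291 and 9.11 FPKM with siNC in SK-MEL-28, and at 16.2 FPKM with siLINC01291 and 9.21 FPKM with siNC in A375. The siLINC01291 library was the higher one for all 3 in both lines, unlike FOS and FOSB. In A375, though, NR4A3 was under 1 FPKM, at 0.496 FPKM with siLINC01291 and 0.394 FPKM with siNC. The median log2 change of the list was 0.03, near that of all tested genes.

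Of 23 tested genes reported elsewhere as AP-1 targets, 20 had a log2 change below 0, where 48.6% of all tested genes did. Their median was -0.24 against 0.01. At an unadjusted p under 0.05 in edgeR, 0 were higher and 9 lower, against 8.53% and 8.37% of all tested genes. Like the other lists, this list was chosen with earlier results of these data known. In SK-MEL-28 19 of the 23 lay below 0 (median -0.32) and in A375 17 did (median -0.29). CXCL8, which codes for the chemokine interleukin 8, fell by 1.35 on the log2 scale (SE 0.13, edgeR adjusted p = 0.0171). CXCL8 stood at 10.6 FPKM with siLINC01291 and 30.8 FPKM with siNC in SK-MEL-28, and at 7.79 FPKM with siLINC01291 and 16.6 FPKM with siNC in A375. HBEGF, which codes for an EGF receptor ligand, had a log2 change of -0.83 and did not pass (SE 0.16, edgeR adjusted p = 0.0879). DESeq2 called 2 of the list lower, CXCL8 among them, and limma called 0. The targets are shared with other transcription factors, and whether JUN had a part in their levels was not tested.

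**Figure D4:**
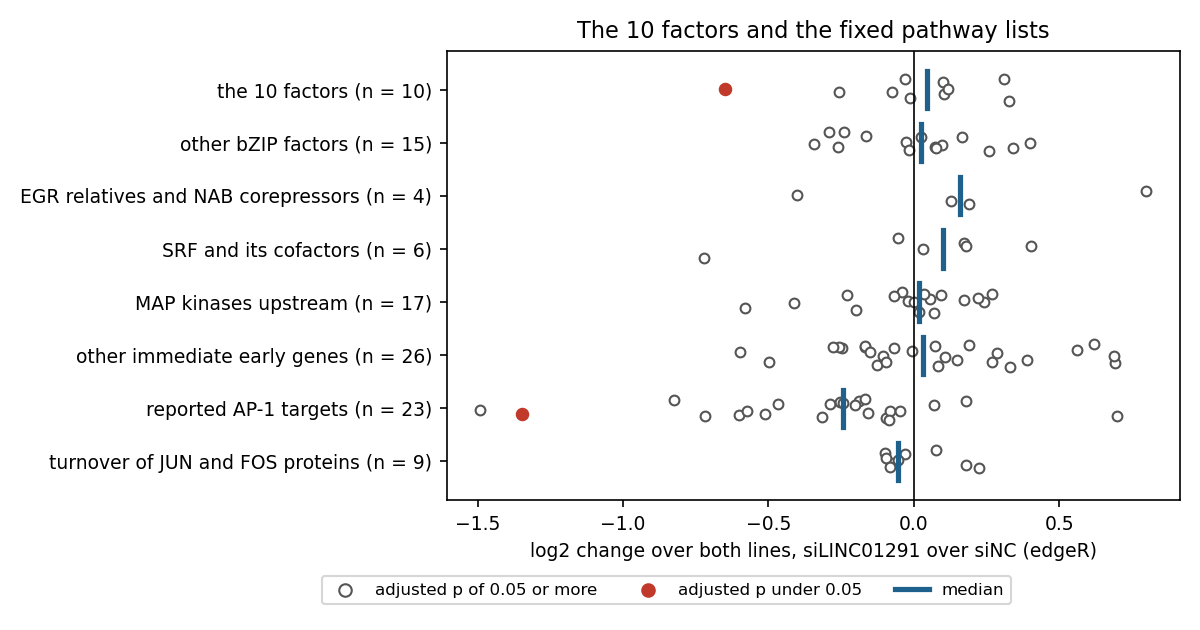
Log2 change over both lines, siLINC01291 over siNC, of each tested gene (points) of the 10 factors and the 7 lists, with the median of each row as a bar; filled points passed at an adjusted p under 0.05 (edgeR). JUN and CXCL8 are the filled points, and the reported AP-1 targets have the lowest median, -0.24.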

How the data were processed

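RNA sequencing values of 4 libraries were used. Per the labels' protocols, fastp removed adapters, duplicates and poor reads, ribosomal RNA was taken out, HISAT2 did the alignment, StringTie added new transcripts and HTSeq gave the quantities. Build hg19, DESeq2 and edgeR are named in the submitters' processing notes. For versions, annotation release and strand setting, the labels say nothing. The deposited counts are whole reads per gene, and the deposited FPKM, TPM and CPM were scaled by the authors. CPM were not used, and TPM served only to check the order of levels.

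Counts were fitted with edgeR 4.0.16 (R 4.3.3, TMM, quasi-likelihood test, terms for cell line and siRNA, 1 residual degree of freedom) on the 13501 genes that reached 1 FPKM in 2 or more libraries, with Benjamini-Hochberg adjustment over all of them and a threshold of 0.05; all 10 factors passed the filter. The pairing comes from the cell line. Within a line, log2 ratios used TMM-scaled counts with a prior count of 2, and genes reaching 1 FPKM in either library of the line were taken as expressed. Intervals are exact binomial (95%). Alternatives used DESeq2 1.42.0 and limma 3.58.1, among other settings. The edgeR fit was tested on simulated data. Python 3.11.15 with pandas 2.3.3, scipy 1.17.1 and matplotlib 3.10.9 was used for tables, sequences and drawings.

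The factors, lists and tests were chosen with earlier results of these data known. Named are all 10 factors, LINC01291, and of each list the genes that passed and the 3 with the largest log2 change, of which 1 is not reported here. HOOK2, ERCC1 and PLA2G6, each on the opposite strand of a factor, were added after their values were seen. Gene positions and 3' UTRs come from GENCODE 29 on GRCh38, not from hg19, and promoters from RefSeq; 9 of the 10 factors had an entry. UTRs of like length are within 1.5-fold.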

Additional observations from a re-analysis of the deposited data

Results flagged for a closer look

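For 4 of the factors the siLINC01291 and siNC libraries differed in opposite directions in the 2 lines, with both counting intervals excluding a ratio of 1. The same held for 7.03% of the 10988 genes expressed in both lines. FOSB had a log2 ratio of 0.88 in SK-MEL-28 and -0.45 in A375. FOS had 0.77 in SK-MEL-28 and -0.12 in A375. FOSL2 had 0.32 in SK-MEL-28 and -0.12 in A375, and JUND had 0.15 in SK-MEL-28 and -0.16 in A375. The difference between the lines was not tested, since each group holds 1 library.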

How the results depend on the processing

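The count of factors that passed for siLINC01291 against siNC over both lines, 1 as reported (JUN), was 0 with library totals only, with an FPKM minimum of 5, in limma on log2(FPKM + 1) and on log2(FPKM + 0.1), without the cell line block, and with bias-adjusted deviances in edgeR, an alternative chosen after seeing the data; it was 1 with DESeq2 size factors, without a filter and in DESeq2. JUN kept its direction under all 9. The count of list genes that passed, 1 as reported, was 10 without a filter, 6 in DESeq2, and 0 in both limma fits and without the block. Over all genes, 30 higher and 91 lower became 99 and 203 in DESeq2, 146 and 238 without a filter, 5 and 27 at an FPKM minimum of 5, 10 and 47 with bias-adjusted deviances, 1 and 5 in limma on log2(FPKM + 1), and 0 and 0 in limma on log2(FPKM + 0.1) and without the block (51 genes at an unadjusted p under 0.05); the cause was not tested.

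JUNB, -0.03 as reported, changed sign to 0.0057 with library totals only, 0.0067 in limma on log2(FPKM + 1) and 0.0088 in limma on log2(FPKM + 0.1). JUND, -0.01 as reported, became 0.024 with library totals only, 0.0061 at an FPKM minimum of 5, 0.00081 in DESeq2, 0.025 in limma on log2(FPKM + 1) and 0.027 in limma on log2(FPKM + 0.1), and FOSB became -0.26 without the block; none of these values passed a test. On log2(FPKM + 1), 0 factors were at least 1.5-fold lower in SK-MEL-28 and 0 in A375. JUN then had a log2 ratio of -0.58 in SK-MEL-28 and -0.57 in A375, against -0.67 and -0.63 as reported. With library totals only, JUN had -0.64 in SK-MEL-28 and -0.59 in A375. On log2(FPKM + 1), 2 in place of 3 factors were at least 1.5-fold higher in SK-MEL-28, where the log2 ratio of FOSB was 0.57 in place of 0.88. That setting adds 1 to each value and also leaves out the TMM scaling, and the part of each was not tested. For SK-MEL-28 against A375, 9 or 10 factors passed under every alternative, 59 to 81 list genes passed against 74, and 3003 and 2997 genes passed at an FPKM minimum of 5, where fewer genes were tested. At 196 counts, the FOSB level in SK-MEL-28 siNC is the least precise of the values given for the factors.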
